A study of Mus musculus with 9 samples.

Results

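The genes described here are 8 genes of intestinal sterol transport: the cholesterol importer Npc1l1, the sterol exporters Abcg5 and Abcg8, the exporter Abca1, the receptor Scarb1, the liver X receptors Nr1h2 and Nr1h3, and the esterifying enzyme Soat2. They were chosen by name and not by their values, as the probes whose gene symbol equals one of the 8 names. The array carries 1 probe for each of them, so that 8 of 17302 probes with a symbol, and 8 of 15674 genes, were followed. Signals came from single-colour arrays read by chemiluminescence, with 1 array for each of 9 mice.

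All mice were males of the outbred stock OF1, aged 7 weeks, of generation 3 of a colony kept on feed B, feed K or feed G throughout. Each feed had 3 mice, numbered 7, 8 and 10 on B, 1, 3 and 4 on K, and 4, 8 and 11 on G. What the letters stand for is not given in the sources used here, so no feed was taken as a control. The methods name a custom maize diet, fed ad libitum, without tying it to a letter. A short segment of jejunum was sampled after 3 hours without food, and the time of day was not randomized. The labels and the methods name different RNA kits. In such bulk tissue fewer cells of a type and less RNA per cell cannot be told apart.

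Dietary and biliary cholesterol enters the enterocyte from the lumen through Npc1l1 in the brush border. Soat2 esterifies it for packing into chylomicrons, Abca1 passes part of it across the basolateral membrane to apolipoprotein A-I, and Abcg5 and Abcg8, which work only as a heterodimer, return sterols and above all plant sterols to the lumen. Nr1h3 (LXR alpha) and Nr1h2 (LXR beta) are nuclear receptors that sense oxysterols and, paired with a retinoid X receptor, raise transcription of Abca1, Abcg5 and Abcg8. Scarb1 (SR-BI) is a receptor for high density lipoprotein that also lies in the brush border.

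The RefSeq promoter table (build GRCm38.p6) held windows for 6 of the 8 genes, not for Scarb1 and Soat2. Abcg5 and Abcg8 lie head to head and start from one short stretch of DNA, which is shown because the values of this pair are set against each other below. The stretch runs over 109 bases between the starts, chr17:84683012-84683120 on the plus strand, and the capitals mark matches to AGATAA, the letters bound by GATA factors, read here on the other strand as TTATCT.

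Abcg5-Abcg8 intergenic: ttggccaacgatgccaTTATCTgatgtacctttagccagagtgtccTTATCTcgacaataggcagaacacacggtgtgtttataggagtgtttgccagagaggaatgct

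The 2 matches lie 93 and 63 bases before the Abcg8 start, and 3.98% of 32851 promoter windows of the same length held such letters on either strand. The bases before Npc1l1, whose values moved with those of Abcg8 from mouse to mouse, are shown for comparison. They cover chr11:6230246-6230495 on the minus strand, and the capitals mark 1 match to AGGTCA, the half-site of nuclear receptors such as the liver X receptors, read on the other strand as TGACCT.

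Npc1l1 upstream: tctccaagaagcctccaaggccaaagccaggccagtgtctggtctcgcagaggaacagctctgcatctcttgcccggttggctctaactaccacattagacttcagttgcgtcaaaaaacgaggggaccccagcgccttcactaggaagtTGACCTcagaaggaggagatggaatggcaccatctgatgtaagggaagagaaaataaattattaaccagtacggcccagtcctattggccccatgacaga

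This match lies 100 bases before the start, and 14% of the windows of 250 bases held one. The arrangement bound by the liver X receptor and its partner, 2 copies of AGGTCA 4 bases apart, was in none of the members' windows and in 0.0152% of all windows. AGATAA had no match before Npc1l1. These are matches of letters only.

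A probe was called detected where its signal was at least 3 times its noise, and between 33.7% and 48.1% of all probes were detected per array, the lowest share being that of mouse 8 on feed B. The enterocyte markers with a probe (5 of 8 listed, such as Vil1 and Fabp2) were detected on all 9 arrays, with summed normalized signals of 1540000 to 2660000 on B, 1990000 to 2520000 on K and 1780000 to 2250000 on G. Fabp1 of this list spread widest, from a log2 signal of 19.35 in mouse 8 of feed B to 16.40 in mouse 11 of feed G. Its SD over the 9 mice was 0.89. Fabp2, highest in mouse 11 of feed G (20.79), had an SD of 0.30, and the others had 0.16 to 0.19. Sums for the ileal markers ran from 58000 to 359000 on B, 61400 to 64200 on K and 40000 to 846000 on G. Fabp6, the ileal bile acid binding protein that defines this list, had a log2 signal of 19.51 in mouse 11 of feed G, 17.84 in mouse 10 and 15.81 in mouse 7 of feed B, between 8.10 and 12.19 in 5 others, and was not detected in mouse 8 of feed B. Smooth muscle markers summed to 117000 to 135000 on B, 112000 to 146000 on K and 85500 to 141000 on G. Macrophage markers ran from 222000 to 295000, 165000 to 251000 and 68700 to 341000, and adipocyte markers from 6400 to 32900, 13300 to 17700 and 10700 to 12900, in the same order of feeds. B cell markers ran from 3310 to 5730, 799 to 5370 and 2390 to 5480. Acinar markers of the pancreas stayed at 623 to 1450 over all arrays, with 2 of the 4 on the array (Prss2 and Pnlip) never detected. Among the duodenal markers Ipf1 and Onecut2 were never detected, and Cck was left out on 2 arrays of feed G for failed spots, so that this sum, 2330 to 178000 over the 9 arrays, cannot be compared between feeds.

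Of the 8 genes, 6 were detected in all 9 jejuna: Npc1l1, Abcg5, Abcg8, Abca1, Nr1h3 and Soat2. Their signal-to-noise ratios lay between 5.46 and 105 and the SD of a spot was between 0.951% and 18.3% of its signal, with a median of 2.68%. Scarb1 was detected in 5 jejuna and Nr1h2 in none. Values below are log2 of the quantile normalized signal unless said otherwise, and a level of one gene cannot be compared with that of another, since probes differ in how brightly they bind.

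Npc1l1, the importer, had log2 signals of 15.48, 15.81 and 15.31 in the mice on B, 15.86, 15.32 and 15.86 on K, and 15.34, 15.16 and 14.88 on G. The feeds overlapped for each pair, although mouse 11 of feed G was the lowest and the means were highest on K and lowest on G. The means were 15.68 ± 0.31 on K, 15.53 ± 0.25 on B and 15.13 ± 0.23 on G (SD, n = 3 each). The largest difference between feeds, G minus K, was -0.55 with a 95% interval from -1.10 to -0.01 before adjustment, and it did not pass limma's test over all genes (adjusted p = 0.96).

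Abcg5 and Abcg8, the 2 subunits of the sterol exporter, had unlike profiles over the mice after quantile normalization, though not after median scaling. Abcg5 had log2 signals of 11.61, 12.51 and 12.33 on B, 12.80, 13.00 and 12.28 on K, and 12.45, 12.51 and 12.57 on G. Mouse 7 of feed B was the lowest of the 9, and the mice on G lay within an SD of 0.06, against 0.48 on B and 0.37 on K. K exceeded B by 0.54 (95% interval -0.11 to 1.20, adjusted p = 0.80 by limma).

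Abcg8 read 12.97, 13.49 and 12.82 on B, 13.01, 12.74 and 13.12 on K, and 12.77, 12.69 and 12.38 on G. All 3 mice on G were below all 3 on B, the only pair of feeds in which a tested member did not overlap. The difference G minus B was -0.47 (95% interval -1.01 to 0.06, adjusted p = 0.87 by limma), and when each array was scaled to its median instead it turned to 0.064.

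Abca1, the basolateral exporter and a classical target of the liver X receptors, had log2 signals of 9.71, 10.28 and 9.81 on B, 10.16, 10.12 and 10.34 on K, and 10.62, 10.23 and 9.58 on G. The mice on G held both the highest and the lowest value, with an SD of 0.53, against 0.12 on K and 0.31 on B. K minus B was 0.27 (95% interval -0.39 to 0.94, adjusted p = 0.92 by limma).

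Soat2, the enzyme that makes cholesteryl esters, read 11.28, 11.67 and 11.40 on B, 12.15, 11.46 and 11.64 on K, and 11.31, 11.63 and 10.67 on G. Mouse 1 of feed K was the highest and mouse 11 of feed G the lowest, and the other 7 lay between them within 11.28 and 11.67. G minus K was -0.55 (95% interval -1.23 to 0.13, adjusted p = 0.96 by limma).

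The receptor Nr1h3 varied least after quantile normalization, though by median scaling its mice on K and on G all lay above those on B. Its log2 signals were 12.94, 13.42 and 12.86 on B, 12.94, 13.02 and 13.16 on K, and 13.24, 13.03 and 13.03 on G. Apart from mouse 8 of feed B, the values lay between 12.86 and 13.24, and the means of the feeds were 13.07 ± 0.30, 13.04 ± 0.11 and 13.10 ± 0.12 (SD, n = 3 each). G exceeded K by 0.06 (95% interval -0.40 to 0.52, adjusted p = 0.99 by limma), a difference that became -0.010 without mouse 4 of feed G.

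Nr1h2, the sister receptor of Nr1h3, was not detected on any array, and its probe, which lay at the noise level, was left out of the tests. Scarb1 was detected in 0 of 3 jejuna on B, 3 of 3 on K and 2 of 3 on G. Its log2 signals were 6.40, 8.55 and 6.25 on B, 8.41, 7.61 and 8.93 on K, and 7.16, 6.98 and 7.70 on G, and mouse 8 on B, with a signal-to-noise ratio of 2.02, overlapped those on K. It entered the tests mainly through its detection on K, so that its K minus B is a description. Since B was not above background, this difference gives neither a fold nor a lower limit of one. With all mice it was 1.25 (95% interval -0.17 to 2.67, adjusted p = 0.80 by limma), and it rested on single mice. It was 2.09 without mouse 8 of feed B, 0.84 without mouse 10 of feed B and 0.92 when spots with a signal below the noise were left out. No fold is given for G against B either, where mouse 8 of G was itself undetected.

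**Figure D1:**
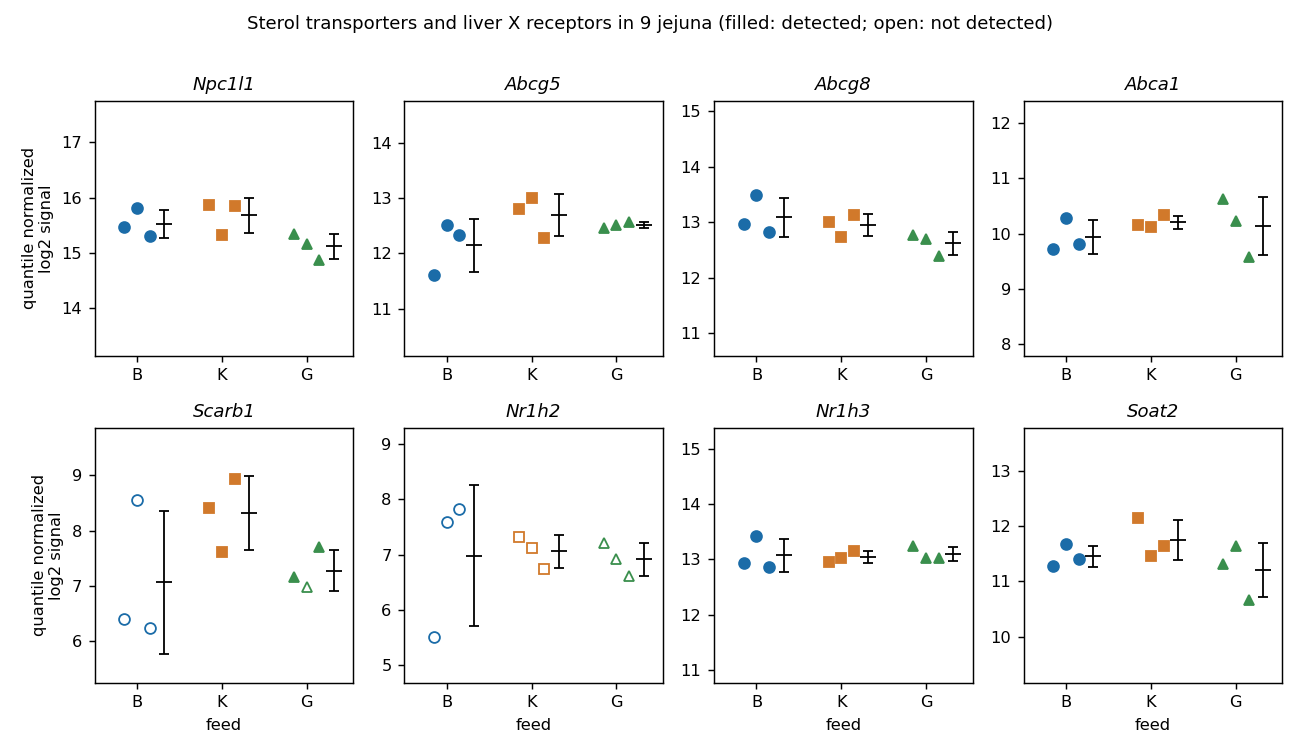
Quantile normalized log2 signal of the 8 genes (vertical axes, each spanning the same number of log2 units) by feed (horizontal axes), with 1 point per mouse, filled where the probe was detected and open where it was not, and the mean ± SD of 3 mice beside them. All 3 mice on G lie below those on B for Abcg8, and the open points of Scarb1 and Nr1h2 mark spots near the noise.

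Over the 3 feeds, 0 of the 7 members tested passed limma's moderated F test (adjusted p between 0.903 and 0.995), against 0% of 9652 genes tested. Before adjustment limma called 0 of the 7 members, and 5.37% of all genes, at 0.05. By an exact permutation F test over the 280 divisions of the mice, whose smallest possible p is 0.00357, 0 of 7 were below an unadjusted 0.05 (exact p = 0.107 for Npc1l1 to 0.929 for Nr1h3), against 5.09% of the 9556 genes with a value on every array. The K and B mice did not overlap for 0 of 7 members, against 9.94% of genes. For G and B this was 1 of 7 members (Abcg8), against 10.9%, and for G and K 0 of 7, against 13.7%. The members' counts are near these shares, and with 3 mice against 3 a single pair of feeds cannot reach an exact two-sided p below 0.1.

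The direction of several differences depended on how arrays were brought to one scale. With quantile normalization the median gene differed by 0.05 for K minus B and by 0.06 for G minus B, whereas scaling each array to its median set these to 0.41 and 0.53, and the authors' assay-normalized table to 0.21 and 0.30. K minus B was above 0 in 5 of 7 members after quantile normalization and in 7 of 7 under either other scaling. For G minus B the members above 0 were 4 of 7 by quantile normalization, 7 of 7 by median scaling and 5 of 7 in the assay-normalized table. Nr1h3, flat by quantile normalization, then stood 0.57 higher on G than on B by median scaling, close to the shift of the median gene. G minus K moved less, with 1, 2 and 2 of 7 members above 0. This difference was -0.55, -0.34 and -0.30 for Npc1l1, in the order of quantile normalization, median scaling and assay normalization. It was -0.55, -0.44 and -0.40 for Soat2, and -0.34, -0.22 and -0.18 for Abcg8.

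**Figure D2:**
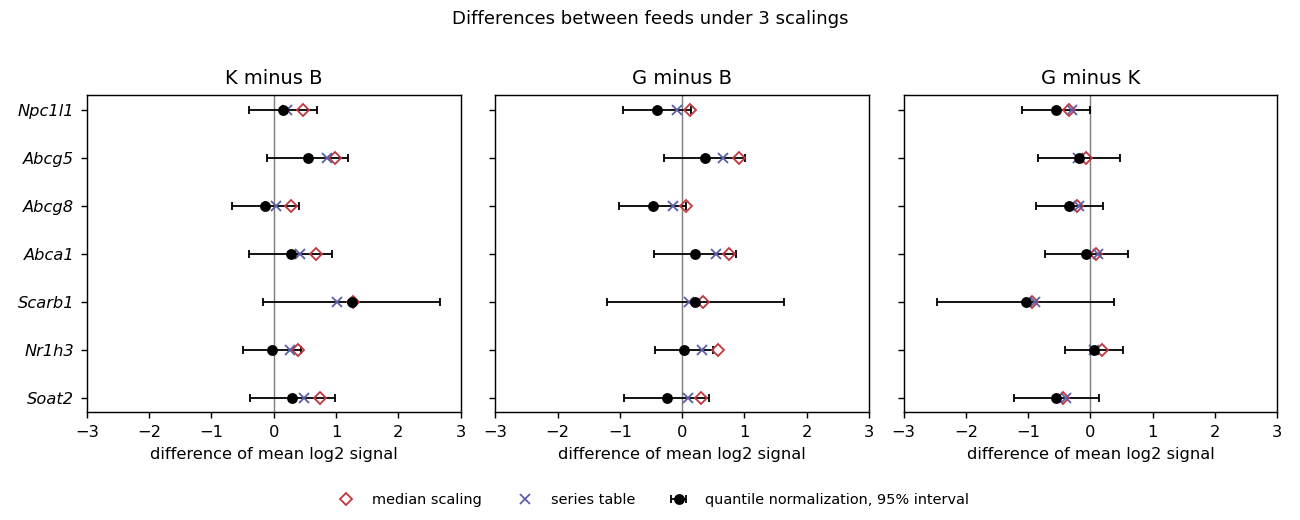
Difference of mean log2 signal between feeds (horizontal axes) for the 7 members tested, with limma's 95% interval before adjustment for quantile normalization (circles) and the same differences by median scaling (diamonds) and in the assay-normalized series table (crosses). For G minus B the diamonds lie to the right of the circles in each of the 7 members, and for G minus K the 3 symbols lie close together.

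From mouse to mouse, after quantile normalization, the 6 members detected throughout had a median SD of 0.34 log2 units. This compared with 0.29 for the 5887 genes detected on all 9 arrays. Within feeds the medians were 0.31 and 0.28. Soat2 had the largest SD (0.40, percentile 71.4 of those genes) and its brightest jejunum was 2.80-fold its dimmest. Abcg5 followed with an SD of 0.39 and a 2.62-fold range, then Npc1l1 (0.34, 1.97-fold), Abca1 (0.33, 2.06-fold) and Abcg8 (0.31, 2.15-fold). Nr1h3 had an SD of 0.17, percentile 13.8, and a 1.48-fold range. These spreads hold both the mice and the arrays, since each mouse was measured once.

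The members varied together in part. Of 15 pairs of these 6 genes, 13 had a Pearson r above 0 over the 9 mice (from -0.19 to 0.89, median 0.41), and 1 passed after Benjamini-Hochberg adjustment over the 15. That pair was Npc1l1 and Abcg8, the importer and one subunit of the exporter, with r = 0.89 (adjusted p = 0.012, exact permutation test, two-sided, n = 9) and a Spearman rho of 0.88 (adjusted p = 0.046, same test). By r with Npc1l1, however, Abcg8 would rank only 98 among 5881 other genes detected on all arrays. An r this high was thus not particular to this pair. For Npc1l1 and Abcg8 r was 0.98 without the 2 mice farthest from the median of Npc1l1, and 0.84 under median scaling (adjusted p = 0.015, exact permutation test). After the feed means were subtracted r was 0.92 (adjusted p = 0.0085, permutation test, which is not exact in that setting). Mouse 11 of feed G, the lowest for both genes, weighed on the test: without it r was 0.82 and no longer passed (adjusted p = 0.089, exact permutation test, n = 8). The same mouse had the highest Fabp6 and Fabp2 signals, the lowest Fabp1 signal, and the lowest macrophage and smooth muscle sums given above. Their part in this relation was not tested.

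Abcg5 and Abcg8, which share the promoter region printed above, had r = -0.19 (adjusted p = 0.76, exact permutation test, n = 9) and a rho of -0.42 (adjusted p = 0.51, same test). Without the 2 mice farthest from the median of Abcg5 r was -0.09, and with each mouse left out in turn it lay between -0.33 and -0.11. By median scaling, however, r became 0.74 (adjusted p = 0.050, exact permutation test), and 0.20 without the 2 farthest mice, so that the value rests on those mice. Median scaling made all 15 pairs positive (0.39 to 0.90) and 6 of them passed, and with each array's level shared by all its probes such a common shift was not separated from variation between mice.

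Npc1l1 and Soat2, which act one after the other on incoming cholesterol, had r = 0.79 (adjusted p = 0.075, exact permutation test, n = 9) and a rho of 0.67 (adjusted p = 0.29, same test). The r was 0.70 without the 2 mice farthest from the median of Npc1l1, and it passed by median scaling (r = 0.86, adjusted p = 0.014, exact permutation test). Abca1 and its regulator Nr1h3 had r = 0.63 (adjusted p = 0.26, exact permutation test) and rho = 0.67 (adjusted p = 0.29, same test), or 0.68 without the 2 mice farthest from the median of Abca1. After subtracting the feed means 3 pairs passed: Npc1l1 and Abcg8, Abcg8 and Nr1h3 (r = 0.85, adjusted p = 0.028, permutation test) and Abcg8 and Abca1 (r = 0.80, adjusted p = 0.044, permutation test). Such values sum to 0 within each feed but were permuted across feeds. The test is therefore not exact there, and its p-values tend to be too small. In that setting r for Abcg5 lay between -0.19 and 0.19 with each of the others.

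**Figure D3:**
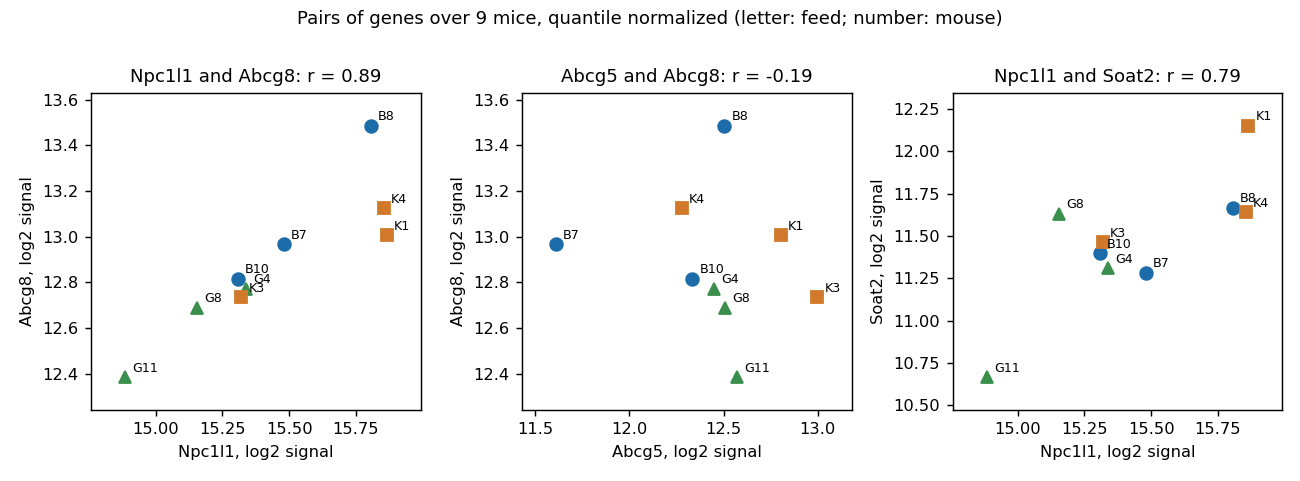
Quantile normalized log2 signals of 3 pairs of genes, with 1 point per mouse labelled by feed and mouse number. The values of both genes rise together for Npc1l1 and Abcg8 (r = 0.89) and for Npc1l1 and Soat2 (r = 0.79), with mouse 11 of feed G lowest in both, and show no such order for Abcg5 and Abcg8 (r = -0.19).

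**Figure D4:**
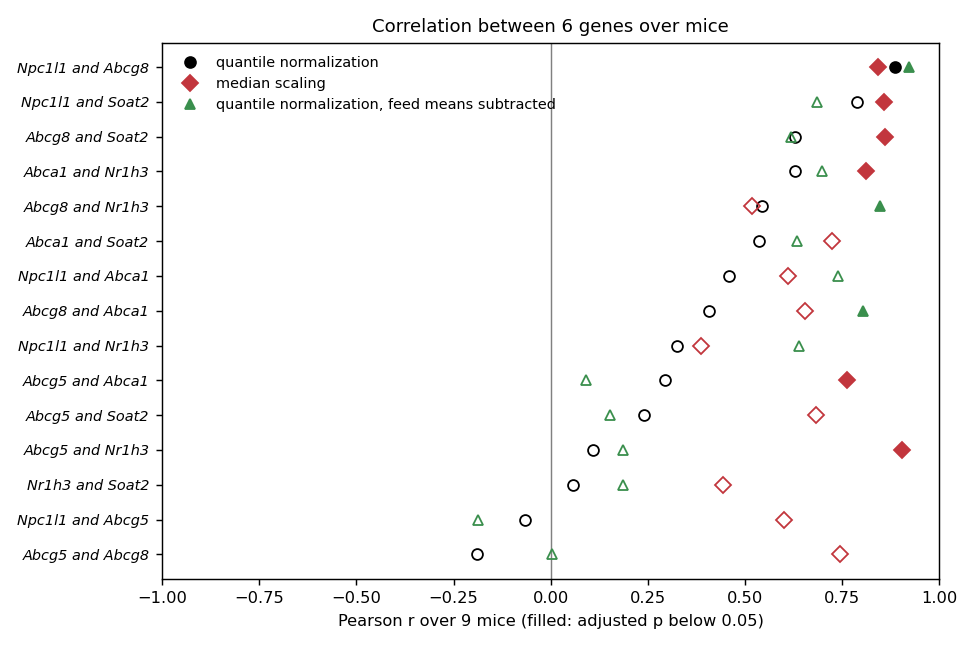
Pearson r over 9 mice (horizontal axis, from -1 to 1) for the 15 pairs of the 6 genes detected on all arrays, under 3 settings, with filled symbols where the adjusted permutation p was below 0.05. The permutation test is not exact with the feed means subtracted. Npc1l1 and Abcg8 are filled in each setting, while the 5 pairs with Abcg5 lie between -0.19 and 0.29 by quantile normalization and between 0.60 and 0.90 by median scaling.

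Ratios of 2 genes on one array need no scaling between arrays as far as arrays differ by a common factor. Only changes of a ratio from mouse to mouse carry information, not its size. Over the deposited signals of the 15 pairs, K and B did not overlap for 2 ratios, G and B for 6, and G and K for 3. The ratios share genes, and the share over ratios of other genes was not computed, so these counts are a description. The SD of the log2 ratio over 9 mice ran from 0.12 to 0.56 with a median of 0.37. The ratio of Npc1l1 to Abcg8 was the steadiest, at 2.62, 2.38 and 2.46 on B, 2.75, 2.51 and 2.75 on K, and 2.60, 2.50 and 2.56 on G, a 1.30-fold range. The least steady was Npc1l1 to Abcg5 (SD 0.56, a 3.35-fold range).

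Abcg5 to Abcg8, the ratio of the subunits, came close behind with an SD of 0.55. Its log2 values were -1.38, -1.0 and -0.47 on B, -0.19, 0.26 and -0.83 on K, and -0.32, -0.16 and 0.18 on G. All 3 mice on G were above all 3 on B, by 0.85 on average (0.64 to 1.09 with each mouse left out), while K overlapped both. The 3 feeds did not differ past the threshold (exact permutation p = 0.114, adjusted p = 0.29 over the 15 ratios).

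Measured against the receptor Nr1h3, both Abcg8 and Npc1l1 were lower on G. Abcg8 to Nr1h3 was 0.02, 0.08 and -0.04 on B, 0.07, -0.29 and -0.04 on K, and -0.49, -0.34 and -0.64 on G, so that the mice on G were below all others (exact permutation p = 0.018, adjusted p = 0.25 over the 15 ratios). Npc1l1 to Nr1h3 was 2.64, 2.45 and 2.42 on B, 2.82, 2.23 and 2.71 on K, and 2.11, 2.16 and 1.91 on G, again with G below all others (exact permutation p = 0.068, adjusted p = 0.25). Abcg8 to Abca1 was the other ratio with an exact permutation p below 0.05 (0.046, adjusted p = 0.25), with means of 3.16 on B, 2.77 on K and 2.46 on G. Of the 15 ratios, 0 passed after adjustment. Quantile normalization changed some of these results. Npc1l1 to Abcg8 then had an exact permutation p of 0.021 (adjusted p = 0.080), with all mice on K above those on B and G. Over the deposited signals its exact permutation p was 0.20 (adjusted p = 0.37). For Npc1l1 to Nr1h3 the exact permutation p became 0.021 (adjusted p = 0.080). The smallest adjusted p there was 0.080, so that again no ratio passed.

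**Figure D5:**
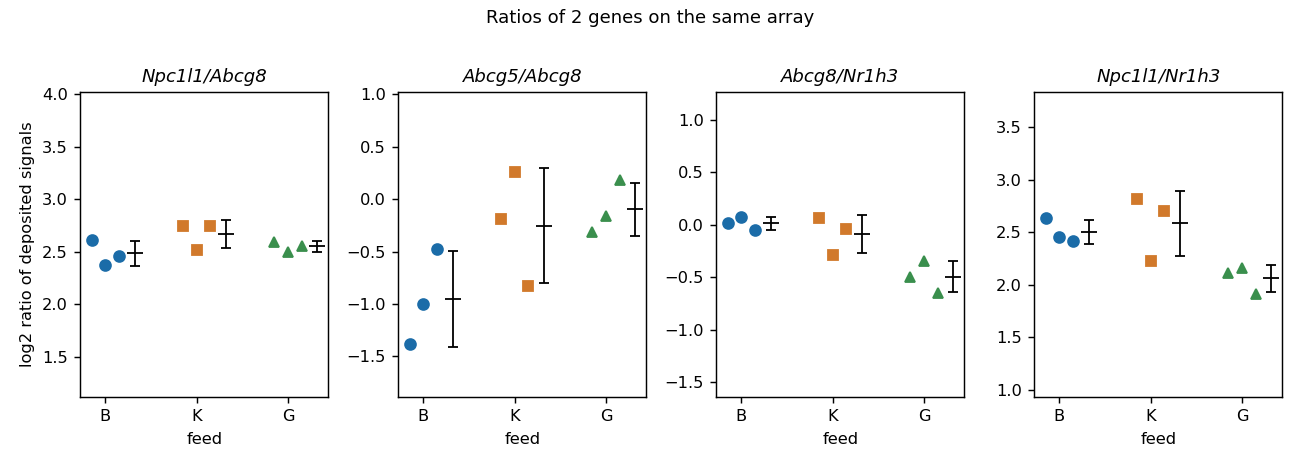
Log2 ratio of the deposited signals of 2 genes on the same array (vertical axes, each spanning the same number of log2 units) by feed, with 1 point per mouse and the mean ± SD of 3 mice. Npc1l1/Abcg8 stays within 2.38 to 2.75, Abcg5/Abcg8 is higher in each mouse on G than on B, and both ratios to Nr1h3 are lower on G than on B and K.

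Among the 5881 other genes detected on all arrays, those whose profile over the 9 mice was most like each member were listed by Pearson r, as a description over arrays that share their depth and background. For Npc1l1 they included D430028G21Rik (0.98) and 0610007H07Rik (0.97), and Abcg8 would rank 98 and Soat2 350. Abcg8 was most like 1110028N05Rik (0.98), the heme synthesis enzyme Cpox (0.96) and the complex I subunit Ndufa5 (0.96), and Npc1l1 would rank 83. Abcg5 was most like AI987712 (0.98), the Golgi tether subunit Cog1 (0.97) and the mitochondrial phosphate carrier Slc25a3 (0.95), and Abcg8 would rank only 4088. For Abca1 these were the sulfotransferase Sult1b1 (0.96), the amino acid transporter chain Slc3a2 (0.94) and Dlat (0.93), and for Nr1h3 the transporter Abcc6 (0.95), LOC232337 (0.94) and 9430041C03Rik (0.92). Soat2 was closest to the glutaredoxin Glrx1 (0.93), 2610528H13Rik (0.90) and the xanthine dehydrogenase Xdh (0.90), and Npc1l1 would rank 96. Several of these likenesses depended on the scaling: by median scaling r with Nr1h3 was 0.67 for Abcc6 and 0.59 for 9430041C03Rik but 0.99 for LOC232337, and r with Abcg8 was 0.74 for 1110028N05Rik. The 3 genes most like Abcg5 kept r between 0.98 and 0.99, while Abcg8 itself went from -0.19 to 0.74 with Abcg5.

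Other genes of sterol handling were followed in 6 lists, and none of those tested passed limma's F test. In these lists (other targets of the liver X receptors, their partners, cholesterol entry and traffic, esterification with hydrolysis and lipoprotein assembly, sterol sensing, and related transporters and receptors) 82 of 90 genes had a probe and 73 were tested (0 passed, and 5 before adjustment). By the exact permutation F test 6.94% were below an unadjusted 0.05, 5 genes, beside the 5.09% of all genes. Groups did not overlap for 12.3% (K and B, 4 higher and 5 lower on K), 9.59% (G and B, 1 higher and 6 lower on G) and 19.2% (G and K, 2 higher and 12 lower on G), beside 9.94%, 10.9% and 13.7% of all genes.

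Of the 14 other targets tested, Mylip, the ligase that degrades the low density lipoprotein receptor, had the smallest p, with means of 10.46 ± 0.29 on B, 10.02 ± 0.20 on K and 10.83 ± 0.08 on G (SD, n = 3 each, adjusted p = 0.79 by limma). The stearoyl desaturases Scd1 and Scd2 (its probe also carries the name Scd3) had SDs over the mice of 0.97 and 0.94, and Abcg1, a cholesterol exporter detected on 5 arrays, 1.25. Over all 14 targets tested the median difference G minus K was -0.38, beside -0.34 for the 7 members and -0.01 for all genes tested. It was also -0.38 in sterol sensing, and -0.15 in cholesterol entry and traffic. In the remaining lists it was -0.03 (partners), -0.03 (related transporters and receptors) and 0.07 (esterification with hydrolysis and lipoprotein assembly). These medians were not tested. Among the targets G minus K was above 0 for Abcg1 (0.92) and Mylip (0.81), and by at most 0.13 for the others above 0. Among 12 partners the corepressor Ncor1 was highest on B in each mouse, 12.76 on average against 12.33 on K and 12.21 on G (adjusted p = 0.89 by limma). Rxrg, a retinoid X receptor, and the coactivators Ncoa2 and Ncoa3 varied most (SD 1.02, 1.14 and 0.85), each undetected on at least one array.

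Of 26 genes of cholesterol entry and traffic, Myo5b, a motor of apical recycling, had the smallest p, at 13.89 on B, 13.43 on K and 13.43 on G (adjusted p = 0.90 by limma). The largest SDs in that list were those of Npc1 (1.00), Gramd1a (0.95) and Stard5 (0.94), all detected on 7 or 8 arrays. Of 7 genes of esterification with hydrolysis and lipoprotein assembly, Dgat2, which makes triglycerides, was lowest on B, 13.40 against 14.06 on K and 14.13 on G (adjusted p = 0.89 by limma). Apoa4 and Lipa each had an SD of 0.42. In sterol sensing, with 7 tested, Insig2, which holds the sterol sensor in the endoplasmic reticulum, went from 11.09 on B to 10.85 on K and 10.39 on G (adjusted p = 0.89 by limma), and the largest SDs were those of the protease genes Mbtps2 (0.89) and Mbtps1 (0.80), both near the detection limit, and of the squalene epoxidase Sqle (0.64). Among 7 related transporters and receptors, Abcg2, a xenobiotic exporter of the same family as Abcg5, averaged 12.98 on B, 12.36 on K and 12.33 on G (adjusted p = 0.75 by limma). In that list Nr0b2, Abca2 and Nr1i3 had SDs of 1.35, 1.10 and 0.66, but Nr0b2 was detected on only 5 arrays and Abca2 on 7.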

How the data were processed

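For each of 9 arrays the authors deposited scanner output. Its signal column is an intensity, already corrected for background and for position on the array, and the deposited score columns give signal over noise and a quality flag. A table of the whole series holds the assay-normalized intensity, deposited in linear units. All 297108 of its values are identical to those of the array tables. RMA is listed in the submitters' processing notes without a role, and the array's genome build is not given in the sources used here.

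Flags above 5000 removed a spot. Following the methods, quantile normalization (arithmetic mean) and log2 transformation came next, then a mean over each gene's probes. Genes detected (signal-to-noise ratio of at least 3) on at least 3 arrays were tested, 9652 of 9653 (the other had no usable spot on feed B), with limma 3.58.1 in R 4.3.3, with Benjamini-Hochberg adjustment at 0.05. Exact permutation tests ran in Python 3.11.15 (scipy 1.17.1, numpy 2.4.6, pandas 2.3.3, matplotlib 3.10.9). The fits were tested on simulated data. The number of arrays limits the precision.

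The members, lists and tests were chosen with earlier results of these data known. The genes named are the members, up to 3 genes of each list with the largest SD over mice and the one with the smallest F test p, the 3 most similar genes per member (1 of them is not reported here), and markers at the extremes. Within-array ratios, and leaving out each mouse in the correlations, were added after the data were seen. Alternatives were other scalings, the brightest probe, failed spots kept, signals floored at percentile 5, a looser and a stricter detection filter, removal of spots whose signal is below 1 times the noise, an unmoderated F test, and leaving out each mouse. Feeds were also compared in pairs from the same fit.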

Additional observations from a re-analysis of the deposited data

How the results depend on the processing

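No alternative brought a member past limma's adjusted threshold. Under median scaling 2 members (Npc1l1 and Nr1h3) had an exact permutation F p below 0.05, where 13.5% of all genes did, and 6 of the members' pairs of feeds did not overlap, where this held for 17.7% (K and B), 30.8% (G and B) and 9.09% (G and K) of genes. The assay-normalized values of the series gave 2 such pairs, where 9.48%, 18.2% and 7.41% of genes did not overlap, in the same order. With each mouse left out, 0 to 1 members were below an exact permutation p of 0.05 (1 without mouse 8 of feed B, mouse 3 or mouse 4 of feed K), where 3.81% to 9.02% of all genes were, and 1 to 8 of the members' 21 pairs of feeds did not overlap, where 15.6% to 23.2% of the pairs of all genes did not. The count was 8 without mouse 8 of feed B (20.1% of all pairs), 1 without mouse 7 of B or mouse 1 of K, and 2 to 6 without each other mouse. The difference G minus B of Abcg8 turned to 0.064 under median scaling, and G minus K of Nr1h3 lay between -0.010 and 0.12 with each mouse left out. The other 5 largest differences kept their direction under each alternative run. Of the correlations, 6 pairs passed under median scaling, 3 after feed means were subtracted (where the test is not exact), and 0 to 2 with each mouse left out. Abcg5 and Abcg8 changed to r = 0.74 under median scaling, and Npc1l1 and Soat2 passed there (r = 0.86). With each mouse left out r was 0.82 to 0.95 for Npc1l1 and Abcg8, failing only without mouse 11 of feed G, and 0.62 to 0.90 for Npc1l1 and Soat2, passing only without mouse 8 of feed G. Beyond what the scaling itself sets, the cause was not tested. Low signal limits Scarb1 and Nr1h2. No paired analysis was possible because the 9 mice are different animals, each kept on 1 feed.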
